A study of Mus musculus with 3 samples.

Results

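A set of 10 genes for mechanosensitive and calcium-permeable channels was described in endothelial cells (ECs) of the adult mouse lung: *Piezo1*, *Piezo2*, *Trpv4*, *Trpv2*, *Trpc1*, *Trpc6*, *Trpm7*, *Pkd1*, *Pkd2* and *Orai1*. They were found by symbol in the deposited expression table, where all 10 had 1 row each among 24346 genes. The table held 3 libraries, named here S38, S44 and S52 as in the labels, all of one group: wild type C57BL/6J, with ECs freshly isolated from the lung by FACS. The methods give male mice of 6 to 8 weeks, labelled in the living animal with an antibody to VE-cadherin, and a counterstain for CD31, CD45 and podoplanin. No treated, mutant or other organ group was analysed here, so that no contrast between conditions was possible. Neither the labels nor the methods state whether the 3 libraries came from separate or pooled mice, and the spread between them may therefore be technical. Levels are in FPKM (fragments scaled to the length of the transcript and to the number of fragments mapped), a unit that lets genes be set side by side.

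PIEZO proteins are very large channels that open when the membrane is stretched, and PIEZO1 is known as a sensor of blood flow in endothelium. Most transient receptor potential (TRP) channels conduct calcium along with other cations, and they respond to ligands, lipids, heat or swelling. Polycystins form receptor and channel complexes that have been linked to flow sensing in cilia, and ORAI channels open when calcium stores in the endoplasmic reticulum (ER) run empty. In endothelium, calcium that enters through such channels acts on calmodulin, nitric oxide synthase and cell junctions.

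All 10 genes stood at or above 1 FPKM in every library, beside a mean of at least 1 FPKM for 48.3% of all genes in the table. The level of 10 FPKM was reached by the means of 5 of the 10, *Piezo1*, *Pkd1*, *Pkd2*, *Trpm7* and *Piezo2*, against 25.7% of all genes. The median of the 10 means was 12.0 FPKM, close to the 11.2 FPKM of the 11770 detected genes, those whose mean was 1 FPKM or more, and above the 0.784 FPKM of all genes. For S38, S44 and S52 in turn, the median of the 10 was 12.0, 11.5 and 11.8 FPKM. Their summed level was 119, 115 and 122 FPKM. The median and the sum of these genes therefore moved little between libraries on the deposited scale, while single members moved more. Both were taken per library on that scale only.

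The libraries themselves were not alike in what else they held. All 10 endothelial marker genes exceeded a mean of 10 FPKM, and their summed level ranged from 6291 to 7058 FPKM. Summed levels of 7 platelet genes were 1838, 1475 and 46.8 FPKM in S38, S44 and S52, those of 7 leukocyte genes 1089, 834 and 192, and those of 5 alveolar type 2 genes 3756, 3156 and 760. Most of the leukocyte sum was *Lyz2*, a lysozyme gene, at 1047, 780 and 166 FPKM, and 6 of the 7 were lowest in S52. *Ptprc* and *Cd79a* had the library order of *Lyz2*, at 4.30, 2.06 and 0.434 FPKM and at 8.70, 7.32 and 3.17. *Cd52*, *Cd68*, *Cd3e* and *Csf1r* were highest in S44. The leukocyte sum therefore describes mainly *Lyz2*. S52 thus stood apart by the low sums of the platelet, leukocyte and alveolar type 2 lists. All 7 platelet and all 5 alveolar type 2 genes were lowest in it. The 4 alveolar type 1 genes were split, with sums of 348, 373 and 273 FPKM, and with 2 of 4 lowest and 2 of 4 highest in S52. Values without S52 are given for *Trpc6*, *Trpc1*, *Orai1* and *Cacna1c*, and not for every gene that was low or high in it. The 5 lymphatic markers summed to 414 to 634 FPKM, most of it *Lyve1* at 539, 597 and 390, but *Prox1*, the transcription factor that defines lymphatic ECs, was at 0.132, 0.173 and 0.598 FPKM. In such bulk RNA, fewer cells of a type cannot be told apart from less RNA per cell.

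**Figure D1:**
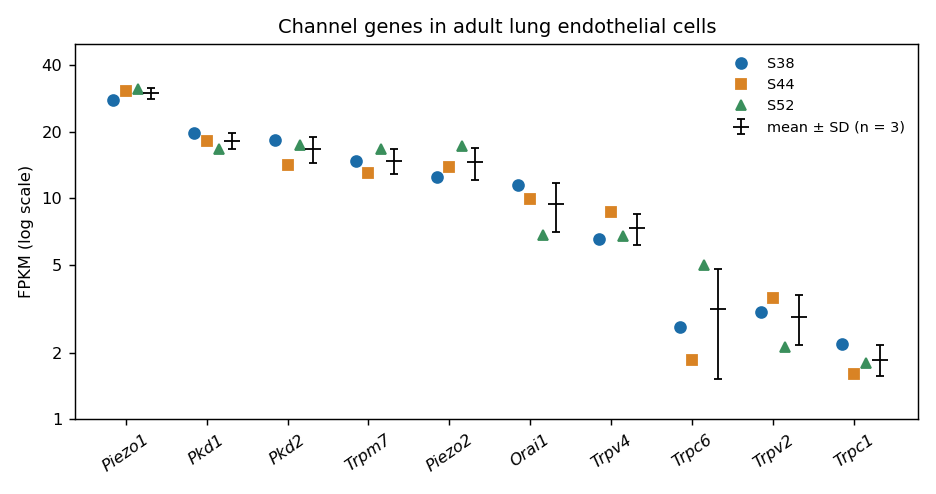
Level of each of the 10 channel genes in FPKM (vertical axis, log scale) in the libraries S38, S44 and S52, with the mean and the SD of 3 libraries beside the points. *Piezo1* sat highest, between 27.9 and 31.2 FPKM, *Trpc1* lowest by its mean at 1.87, and *Trpc6* had the widest spread relative to its mean.

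*Piezo1*, the stretch-activated channel of endothelium and red cells, was the highest of the 10. It measured 27.9 FPKM in S38, 30.5 in S44 and 31.2 in S52, with a mean of 29.9 ± 1.76 FPKM (SD, n = 3). It ranked 2859th of 24346 genes and lay above 75.7% of detected genes. Its coefficient of variation (CV) was 5.88%, and 9.52% of detected genes varied less. *Piezo1* ranked first among the 10 in each library, and its lowest value stood above the highest value of every other member.

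*Piezo2*, best known as the touch and proprioception channel of sensory neurons, measured 12.5, 13.9 and 17.2 FPKM, with a mean of 14.5 ± 2.43 (SD, n = 3). Within each library *Piezo1* exceeded *Piezo2*, by 1.16 on the log2 scale in S38, 1.13 in S44 and 0.86 in S52. The mean log2 ratio was 1.05 ± 0.17 (SD, n = 3), or 2.07-fold, and *Piezo1* held 67.4% ± 2.56 of the summed PIEZO level. Both PIEZO genes were lowest in S38 and highest in S52, a library order seen in 16.0% of detected genes. The transcripts of *Piezo2* were thus present at about the level of *Pkd2* and *Trpm7*, with ranges that overlapped theirs.

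*Piezo1* lies on the minus strand at chr8:122481698-122551329 (GRCm38) and has 51 exons in its longest transcript of 8219 bases. Its last exons share 990 bases with exons of *Ctu2*, a tRNA thiolation gene on the opposite strand, between positions 122481698 and 122483092. The library kit did not keep strand, so fragments from these bases, 12.0% of the exonic bases of *Piezo1* and 703 of them coding, could not be assigned to either gene by strand. *Ctu2* was listed at 3.49, 4.66 and 3.91 FPKM, below *Piezo1* in every library. No 51-base stretch, the read length, was shared between *Piezo1* and *Piezo2* or any other pair of the 10. Outside the 10, 22.7% of the 51-base stretches of *Piezo1*, over all its annotated transcripts, occurred in 1 other gene on either strand. For *Pkd1* the share in other genes was 4.01%, for *Trpc6* 3.75% and for *Trpv2* 2.06%, with less for the rest.

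RefSeq promoter windows (GRCm38.p6, 250 bases before to 50 bases after the start of the transcript) were examined for 9 of the 10 genes. *Piezo2* was left out, so the counts below do not cover it. The window of *Piezo1*, chr8:122551280-122551579 on the minus strand, is shown because this gene was the highest of the 10 and had the lowest CV. It holds 34 CpG dinucleotides, against a median of 7 over 32851 windows. Capitals mark a TATA box (TATAAA), which begins 24 bases before the start, and a GC box (GGGCGG), both on the gene's strand and not overlapping:
Piezo1: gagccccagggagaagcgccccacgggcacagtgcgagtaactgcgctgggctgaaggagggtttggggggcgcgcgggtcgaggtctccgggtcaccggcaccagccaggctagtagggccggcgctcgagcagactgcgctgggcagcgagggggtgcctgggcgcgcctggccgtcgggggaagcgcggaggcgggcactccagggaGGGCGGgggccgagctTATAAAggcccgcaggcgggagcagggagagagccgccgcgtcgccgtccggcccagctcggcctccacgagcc
On either strand, the TATA box occurred in 13.6% of all windows and the GC box in 35.7%. Among the 9 genes, 2 held a TATA box, *Piezo1* and *Trpv2*, and 5 held a GC box, *Piezo1*, *Trpv4*, *Orai1*, *Trpc1* and *Pkd1*. All windows of 8 of the 9 held more CpG dinucleotides than the median, the exception being *Trpv2* with 2 to 7 over its 3 windows. These matches describe letters only, and no binding was measured.

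The 2 polycystins followed *Piezo1* in level. *Pkd1* encodes polycystin-1, a large receptor-like partner, and measured 19.8, 18.1 and 16.7 FPKM, with a mean of 18.2 ± 1.53 (SD, n = 3). *Pkd2* encodes polycystin-2, the TRP-like pore subunit, and measured 18.4, 14.2 and 17.5 FPKM, with a mean of 16.7 ± 2.18 (SD, n = 3). The ranges of the pair overlapped, and their log2 ratios were 0.11, 0.35 and −0.06 in S38, S44 and S52, with a mean of 0.13 ± 0.21 (SD, n = 3). Receptor and pore transcripts were therefore not distinguishable in level at this spread.

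Of the relatives of the polycystins, 5 of the 6 listed had a row, *Pkd1l1* being without one. Of those with a row, 1, *Pkd2l2*, was detected, at 2.75, 2.68 and 2.69 FPKM. *Pkd1* made up 98.1% ± 0.798 of the level of the 4 polycystin-1 family genes with a row. *Pkd2* made up 85.9% ± 1.56 of the polycystin-2 family level. *Pkd1* lies at chr17:24549834-24596508 on the plus strand, with 46 exons and a longest transcript of 14164 bases. It shares 693 bases at its 3′ end with *Tsc2*, a regulator of growth signalling on the opposite strand, none of them coding in either gene. *Tsc2* was at 23.6, 21.8 and 25.9 FPKM, above *Pkd1* in each library, and those shared bases were 4.72% of the exonic bases of *Pkd1*.

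*Trpv4*, a channel opened by swelling, warmth and lipid mediators and studied for its part in lung vascular permeability, measured 6.58, 8.70 and 6.79 FPKM. Its mean was 7.36 ± 1.17 FPKM (SD, n = 3), and it ranked 7269th of all genes. *Trpv2*, another stretch-responsive TRPV channel with a known role in macrophages, measured 3.05, 3.56 and 2.12 FPKM, with a mean of 2.91 ± 0.732 (SD, n = 3). *Trpv4* exceeded *Trpv2* in all 3 libraries, by 1.11, 1.29 and 1.68 on the log2 scale, and the ranges of the pair did not overlap.

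On average *Trpv4* was 2.56-fold above *Trpv2* (log2 1.36 ± 0.29, SD, n = 3), and these genes held 70.9% ± 5.16 and 27.7% ± 3.54 of the TRPV level. No other TRPV gene was detected. *Piezo1* was 4.09-fold above *Trpv4* (log2 2.03 ± 0.20, SD, n = 3). *Trpv4* was lowest in S38 and highest in S44, an order found in 8.98% of detected genes and shared by 4 of the 10 endothelial markers, *Pecam1*, *Cdh5*, *Tie1* and *Tek*. *Trpv2* was lowest in S52 and highest in S44, an order of 19.7% of detected genes. The same order was found in 3 of 4 erythroid, 3 of 5 lymphatic and 3 of 7 leukocyte markers, and the sums of all 3 lists were lowest in S52. The leukocyte sum was mostly *Lyz2*, which was highest in S38 and did not have this order. The order of *Trpv2* was also that of 2 of the 10 endothelial markers, *Cldn5* and *Esam*. The other 2 lymphatic markers, *Prox1* and *Pdpn*, were highest in S52. The study describes its non-lymphatic ECs as negative for CD45 and podoplanin, a gate meant to leave out leukocytes and lymphatic ECs. The part of RNA from erythroid, lymphatic or leukocyte cells in the *Trpv2* value was not tested.

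*Trpc6*, a diacylglycerol-gated cation channel of endothelium and smooth muscle, was the most variable of the 10. It measured 2.62 FPKM in S38, 1.86 in S44 and 5.01 in S52, with a mean of 3.17 ± 1.64 (SD, n = 3). S52 was therefore higher than both others, by 0.93 on the log2 scale over S38 and by 1.43 over S44. *Trpc6* was the only member with a difference of over 2-fold between its highest and lowest library (2.69-fold), 1 of 10 beside 20.1% of detected genes. Its CV of 51.9% exceeded that of 90.3% of detected genes. Without S52 the mean was 2.24 FPKM and the remaining libraries differed by 1.41-fold, and without S44 the remaining libraries differed by 1.91-fold.

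The counts behind *Trpc6* were estimated at 306, 224 and 534 fragments, and counting error over all 10 genes was at most 7.08% in any library, below the spread of *Trpc6*. Its order of libraries, S44 below S38 below S52, was that of 17.8% of detected genes. Of 7 markers of mural cells (pericytes and smooth muscle), 4 had the same order, among them *Pdgfrb* at 6.47, 4.80 and 10.1 FPKM and *Notch3* at 4.99, 1.80 and 7.23. The other 3, *Acta2*, *Myh11* and *Des*, were highest in S38, with *Acta2* at 90.3, 46.7 and 79.7 FPKM. Outside the mural list, the order of *Trpc6* was held by 2 of 4 alveolar type 1, 1 of 5 fibroblast and 1 of 10 endothelial markers. The 7 mural markers summed to 136, 71.2 and 134 FPKM and all had a mean of at least 1 FPKM, so *Trpc6* and the mural sum were both lowest in S44. The part of mural RNA in the *Trpc6* value was not tested.

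**Figure D2:**
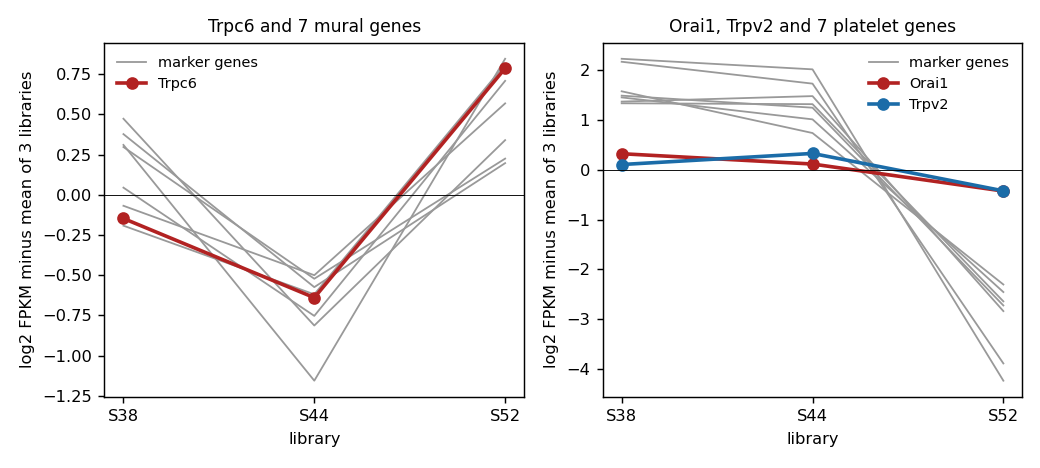
Log2 FPKM minus the mean of the 3 libraries (vertical axis) for each library (horizontal axis). Left, *Trpc6* (red) with the 7 mural markers (grey), all lowest in S44. Right, *Orai1* (red) and *Trpv2* (blue) with the 7 platelet markers (grey), all lowest in S52, where the platelet genes lay much further below their mean.

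The promoter window of *Trpc6* (GRCm38.p6, chr9:8543892-8544191, plus strand) is printed as a counterpart to that of *Piezo1*, since the genes had the highest and the lowest CV of the 10. It contains 17 CpG dinucleotides and neither the TATA box nor the GC box on either strand, hence no capitals:
Trpc6: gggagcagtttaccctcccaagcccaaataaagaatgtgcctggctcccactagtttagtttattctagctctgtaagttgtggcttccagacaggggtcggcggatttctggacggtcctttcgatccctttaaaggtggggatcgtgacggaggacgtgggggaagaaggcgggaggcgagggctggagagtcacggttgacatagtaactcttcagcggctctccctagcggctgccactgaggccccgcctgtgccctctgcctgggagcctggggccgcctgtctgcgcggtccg

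*Trpc1*, a subunit of mixed TRPC channels that has been linked to store-operated entry, was the lowest of the 10 by mean. It measured 2.19, 1.60 and 1.80 FPKM, with a mean of 1.87 ± 0.300 (SD, n = 3) and a rank of 10700th. Its log2 ratio to *Trpc6* was −0.26, −0.22 and −1.48, a mean of −0.65 ± 0.72 (SD, n = 3). *Trpc1* was thus below *Trpc6* within every library, by an amount that was mostly set by S52. Without S52 the mean log2 ratio was −0.24. *Trpc6* held 45.0%, 42.7% and 67.3% of the summed TRPC level, and no other TRPC gene was detected.

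*Trpm7*, a channel fused to a kinase that carries magnesium and calcium, measured 14.7, 13.0 and 16.8 FPKM, with a mean of 14.8 ± 1.89 (SD, n = 3). It exceeded its closest relative, the magnesium channel *Trpm6*, by 4.80 ± 0.74 on the log2 scale (SD, n = 3), or 27.9-fold. *Trpm6* itself was at 0.323, 0.442 and 1.03 FPKM, so the size of that ratio rests on low values, and adding 1 FPKM to both genes reduced it to 3.33. *Trpm4*, a calcium-activated channel that passes sodium but not calcium, measured 13.7, 13.8 and 14.0 FPKM and did not differ from *Trpm7* beyond the spread (log2 0.09 ± 0.18, SD, n = 3). *Trpm7* and *Trpm4* held 49.8% ± 2.76 and 46.8% ± 3.15 of the TRPM level.

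*Orai1*, the pore of the store-operated calcium channel, measured 11.5 FPKM in S38, 9.96 in S44 and 6.84 in S52. Its mean was 9.43 ± 2.37 FPKM (SD, n = 3), and without S52 it was 10.7. S52 was the low library, 1.68-fold below S38. *Orai1* and *Pkd1* were highest in S38, then S44, then S52, as were 26.6% of detected genes. That order was also held by 6 of the 7 platelet genes, all with a mean above 10 FPKM, and by all 5 airway epithelial genes. Of the 5 alveolar type 2 genes 4 had it, of the 7 leukocyte genes 3, and of the 10 endothelial genes 1. *Orai1* is abundant in platelets and leukocytes, and whether RNA of these or of epithelial cells contributed to its level was not tested.

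*Orai1* was not the leading ORAI transcript. *Orai3* measured 17.2, 15.1 and 14.9 FPKM and exceeded *Orai1* in each library, by a mean of 0.77 on the log2 scale (*Orai1* to *Orai3* −0.77 ± 0.31, SD, n = 3). Without S52 the mean log2 ratio of *Orai1* to *Orai3* was −0.59. *Orai2* measured 6.34, 7.32 and 3.03 FPKM and was below *Orai1* in each (log2 0.83 ± 0.37, SD, n = 3). In shares, *Orai3* held 49.1%, 46.7% and 60.1% of the ORAI level, *Orai1* 30.4% ± 2.61 (SD, n = 3) and *Orai2* 17.6% ± 5.18. The share of *Orai1* was the steadiest of the 3 although its level was lowest in S52.

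The ER calcium sensors that open ORAI channels were higher. *Stim2* measured 31.5, 31.9 and 33.0 FPKM, while *Stim1* measured 25.5, 20.7 and 11.3 FPKM and was lowest in S52. *Stim1* was 1.97-fold above *Orai1* (log2 0.98 ± 0.22, SD, n = 3), and both had the same library order. *Stim1* therefore held 44.7%, 39.3% and 25.5% of the STIM level in S38, S44 and S52. *Saraf*, which limits store-operated entry, was the highest of these 5 partners at 167, 202 and 168 FPKM, and all 5 were detected.

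**Figure D3:**
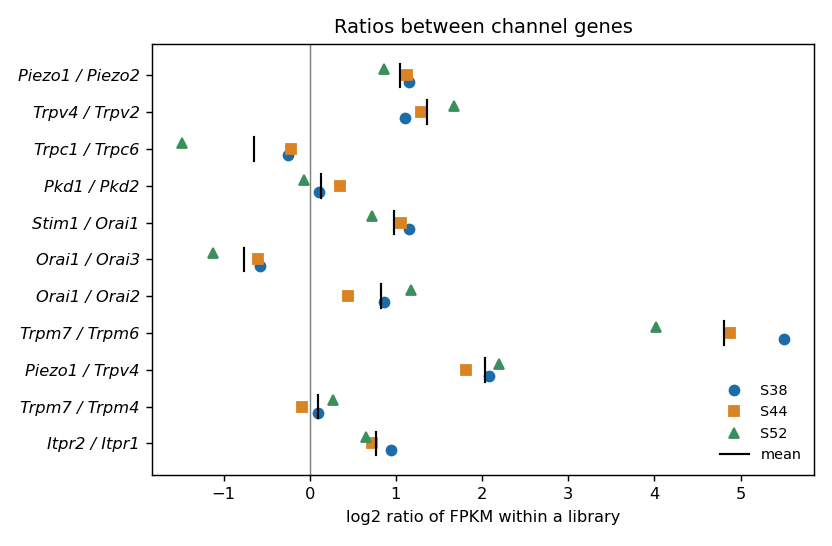
Log2 ratio of FPKM within a library (horizontal axis) for 11 pairs of genes, with a point for each of S38, S44 and S52 and a line at their mean. *Piezo1* to *Piezo2* and *Trpv4* to *Trpv2* were above 0 in every library, *Orai1* to *Orai3* and *Trpc1* to *Trpc6* below 0, and *Pkd1* to *Pkd2* and *Trpm7* to *Trpm4* lay on both sides of it.

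In descending order of mean level, the genes ran *Piezo1*, *Pkd1*, *Pkd2*, *Trpm7*, *Piezo2*, *Orai1*, *Trpv4*, *Trpc6*, *Trpv2* and *Trpc1*. The order was similar in the 3 libraries, with a Kendall coefficient of concordance of 0.957, given as a description. *Piezo1*, *Orai1*, *Trpv4* and *Trpc1* held the same rank in all 3 libraries, while *Pkd1* was second in S38 and S44 and 5th in S52. Neighbours in this order had ranges that did not overlap at 3 places: *Piezo1* above *Pkd1*, *Piezo2* above *Orai1* (12.5 against 11.5 FPKM at the nearest) and *Trpv4* above *Trpc6* (6.58 against 5.01). The other 6 neighbouring pairs overlapped and did not differ beyond their spread, although *Pkd2* exceeded *Trpm7*, *Orai1* exceeded *Trpv4* and *Trpv2* exceeded *Trpc1* within every library. With 3 libraries, a 2-sided exact sign-flip permutation test of a within-library difference cannot give a p below 0.25, so none was run.

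**Figure D4:**
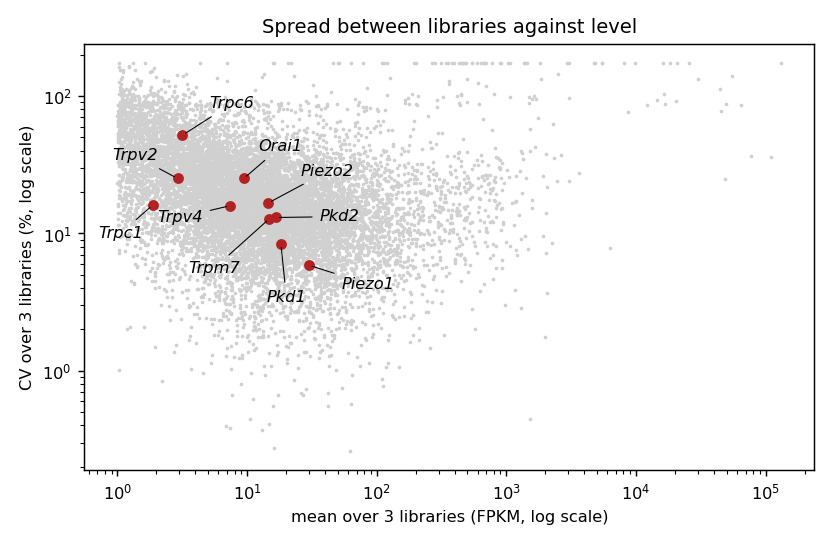
Coefficient of variation over the 3 libraries in percent (vertical axis) against mean FPKM (horizontal axis, both on log scales) for detected genes (grey) and the 10 channel genes (red, named). *Piezo1* combined the highest level with the lowest variation, 5.88%, and *Trpc6* had the highest variation of the 10, 51.9%.

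The spread of the 10 was that of other detected genes. Their median CV was 16.0%, against 17.6% for all detected genes, and 7 of the 10 lay below the latter. S52 gave the lowest value for 3 of the 10, *Pkd1*, *Orai1* and *Trpv2*, beside 46.3% of detected genes. It gave the highest value for 4 of the 10, *Piezo1*, *Piezo2*, *Trpc6* and *Trpm7*, beside 33.9%. *Pkd2* and *Trpc1* were lowest in S44 and highest in S38, as were 10.4% of detected genes.

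Across the TRP superfamily with polycystin-2, 9 of 28 genes were detected, and their summed level was 105 ± 5.25 FPKM (SD, n = 3). The largest share, 37.5%, belonged to *Mcoln1*, the calcium release channel of lysosomes, at 43.7, 38.9 and 35.9 FPKM. *Pkd2* followed with 15.8%, *Trpm7* with 14.1%, *Trpm4* with 13.2% and *Trpv4* with 7.03%. Of the 20 TRP genes other than the 10 described here, *Mcoln1* and *Trpm4* were detected, and 7 were listed at 0 in all libraries, among them *Trpv1* and *Trpa1*, the channels of heat and irritant sensing in sensory neurons. The detected TRP genes thus comprised 6 of the 10, *Mcoln1*, *Trpm4* and *Pkd2l2*.

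The other mechanically gated channels on a list of 14 were mostly low, with 3 detected. *Tmem63a* and *Tmem63b*, channels opened by osmotic stretch, measured 49.6, 64.1 and 64.8 FPKM and 14.8, 15.9 and 16.5 FPKM, so *Tmem63a* stood above *Piezo1* in every library. *Scnn1a*, the alpha subunit of the epithelial sodium channel, measured 4.51, 1.78 and 4.65 FPKM. Of 8 partners and pathway genes of PIEZO and polycystin, 6 were detected. *Stom*, a membrane scaffold protein, was at 137, 179 and 112 FPKM, and *Wwtr1* and *Yap1*, transcription coactivators that respond to stiffness, were at 48.6, 44.9 and 61.4 and at 28.2, 25.0 and 39.2 FPKM. *Mdfic*, an auxiliary subunit of PIEZO channels, was at 26.7, 34.0 and 24.9 FPKM.

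Of 10 genes for the pores of voltage-gated calcium channels, 1 was detected. That gene, *Cacna1c*, the L-type channel of heart and smooth muscle, measured 1.26, 0.596 and 2.06 FPKM and had a mean under 1 FPKM without S52, so that none of the 10 was then detected. Of 6 release channels of the ER, 3 were detected, all of them inositol trisphosphate receptors. *Itpr2* measured 16.7, 12.9 and 14.9 FPKM, *Itpr3* 10.3, 11.0 and 10.2, and *Itpr1* 8.68, 7.81 and 9.42. *Itpr2* exceeded *Itpr1* in each library (log2 0.77 ± 0.15, SD, n = 3), and the ryanodine receptors were below 1 FPKM.

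Genes that remove or buffer calcium were higher than the 10 channels at their top. Of 10 pumps and exchangers, 5 were detected, led by the ER pumps *Atp2a3* at 167, 170 and 200 FPKM and *Atp2a2* at 48.0, 41.0 and 55.9, and by the plasma membrane pump *Atp2b1* at 42.1, 39.2 and 42.3. All 6 genes of the mitochondrial calcium uniporter complex were detected, with *Smdt1* the highest at a mean of 121 ± 18.7 FPKM (SD, n = 3). Of 11 calcium effectors, 10 were detected. Calmodulin genes led them, with *Calm2* at 431, 392 and 461 FPKM, and *Nos3*, the endothelial nitric oxide synthase that calmodulin activates, was at 19.2, 19.1 and 21.2 FPKM, between *Piezo1* and *Pkd1* in mean level. All 6 genes of the shear stress sensing complex were detected, the highest being *Pecam1* at 1125, 1216 and 1164 FPKM, *Cdh5* at 877, 978 and 908 and *Kdr* at 380, 360 and 237. Over the 11 lists, 48 of 101 genes with a row were detected, near the 48.3% of all genes.

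**Figure D5:**
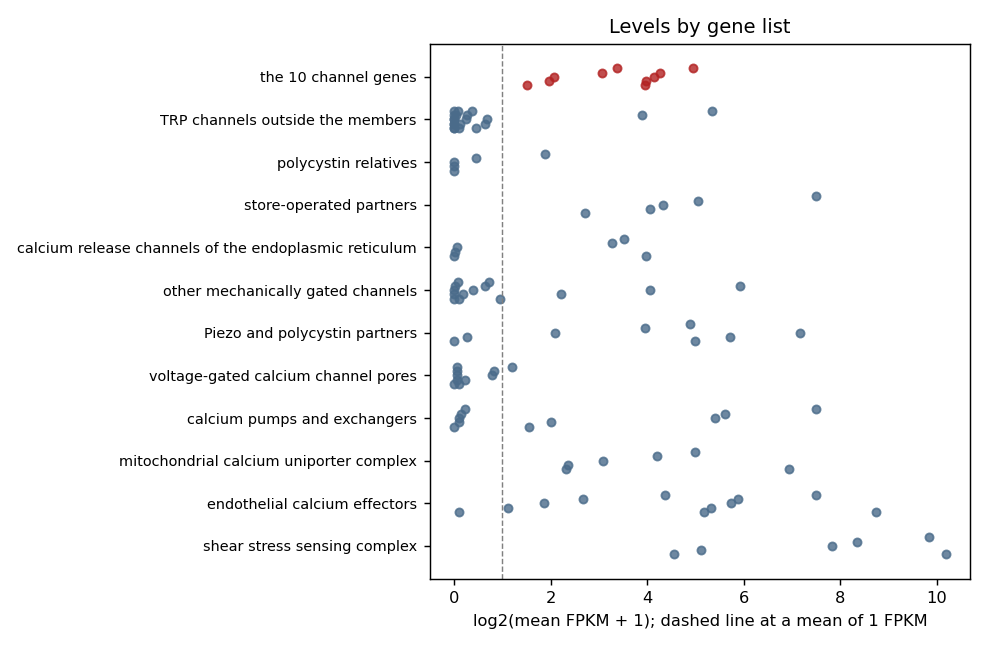
Level of each gene, as log2 of the mean FPKM plus 1 (horizontal axis), in the 10 channel genes (red) and 11 lists of related genes (blue), with the dashed line at a mean of 1 FPKM. Points are shifted up and down only to keep them apart. The 10 channel genes lay right of the line, as did all genes of the store-operated, mitochondrial uniporter and shear stress lists, while most TRP, polycystin and voltage-gated genes lay left of it.

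For each channel gene other than *Piezo1*, the gene of the 11 lists with the most similar values was taken as the one with the smallest maximum difference in log2(FPKM + 1) over the 3 libraries, among 101 candidates. *Pkd2* was nearest to *Micu2* (0.13) and *Trpv4* to *Ccdc109b*, the inhibitory pore subunit Mcub (0.15), both of them genes of the mitochondrial uniporter complex. *Trpm7* was nearest to *Itpr2* (0.17), *Pkd1* to *Micu2* (0.19) and *Piezo2* to *Tmem63b* (0.23). *Trpv2* was nearest to *Pkd2l2* (0.31), *Trpc1* to the sodium-calcium exchanger gene *Slc8a1* (0.38) and *Orai1* to *Itpr1* (0.41). *Trpc6* had the most distant match, *Mdfi* (0.54). These values compare levels in 3 libraries of 1 condition and say nothing of shared control.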

How the data were processed

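RNA of sorted lung ECs was made into non-stranded poly-A libraries and sequenced as 51-base read pairs. The authors deposited 1 table of FPKM per gene for S38, S44 and S52, which is the only file used. The submitters' processing notes name the mm10 build, bcl2fastq 2.17, FastQC 0.11.5, Trimmomatic 0.36, TopHat2 2.1.0 and Cufflinks 2.2.1, without roles. No count table was used, so no count test was run. Means, SDs, CVs and log2 ratios within libraries were computed with Python 3.11.15, pandas 2.3.3 and numpy 2.4.6. Detection was a mean of at least 1 FPKM, and no pseudocount was added unless stated.

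Depth was estimated from the steps of low FPKM values in 7077 genes with a single transcript, after a test on simulated data. It came to about 37475000, 38625000 and 35300000 fragments, with 80.5%, 82.2% and 75.8% of the low values no further than 0.15 from a whole fragment number. A floor of 3 fragments was about 0.0430, 0.0420 and 0.0483 FPKM for a transcript of 2000 bases. Such figures cover counting error only. Short noncoding genes took 59.6% to 70.2% of each library's FPKM sum, which ranged from 1.15e+06 to 1.60e+06. Positions are from GENCODE M21 (GRCm38).

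The 10 genes and all lists were chosen with earlier results of these data known. Beyond the 10, named genes were the 3 highest of each list, those of the fixed pairs, detected TRP, ORAI, STIM and polycystin genes, and each gene's nearest match, of which that of *Piezo1* is not reported here. From the marker lists, the genes named for their library order, and *Prox1*, as well as *Trpv1*, *Trpa1*, *Mdfic*, *Ctu2* and *Tsc2*, were chosen after their values were seen. Alternatives were other thresholds, pseudocounts and scalings, and leaving out each library.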

Additional observations from a re-analysis of the deposited data

How the results depend on the processing

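The levels are on the scale of the deposited FPKM, and other scalings moved them together. With each library rescaled to a sum of 1000000, the median of the 10 means was 8.78 FPKM and 2 of the 10, *Trpc6* and *Orai1*, differed by over 2-fold between libraries (3.04-fold and 2.07-fold). Leaving out short noncoding genes before that rescaling gave a median of 25.4 FPKM. Rescaling by the median ratio gave 12.0 FPKM and 1 gene over 2-fold. At a threshold of 10 FPKM, 5 of the 10 were detected, and at 3 FPKM 8 were. The order of the 10 by mean was the same under the 3 scalings and without S44, while *Piezo2* and *Trpm7* changed places without S38, and *Trpv2* and *Trpc6* without S52. Leaving out 1 library at a time gave a median of 11.6 to 12.0 FPKM and 0 to 1 genes over 2-fold, with 0 when S44 or S52 was left out. All 11 pair ratios kept their sign under the pseudocounts of 0.1 and 1 FPKM and without each library in turn. Ratios within a library do not change with its scaling.

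No paired analysis was possible because the 3 libraries form 1 group. Exact depth was not given, so that fragments behind each value are estimates, and values of a few hundredths of an FPKM could not be told from 0.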
